A study of Homo sapiens with 48 samples.

Results

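Prednisolone, a synthetic glucocorticoid, was set against its solvent vehicle in THP-1, a cell line from a human acute monocytic leukemia. The comparison takes 9 of the 48 RNA sequencing libraries of the study. They are 3 libraries of cells given prednisolone and 6 of cells given the vehicle dimethyl sulfoxide (DMSO), which come in series 1 and series 2 with 3 libraries each. All were collected after 12 h of exposure, at passages 11 to 15, and the dose of prednisolone was its CV90. That term is used for the concentration at which 90% of the cells stay viable, and its value for prednisolone is not known here. DMSO is 0.1% in the protocol, whereas the titles name 0.1, 0.2 and 0.3% for the libraries of series 1 and 0.4, 0.5 and 0.6% for those of series 2. The labels do not say which vehicle series belongs to prednisolone, so it was compared with each series separately and a change counts only where it has the same direction against both.

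Glucocorticoids diffuse into cells and bind the glucocorticoid receptor, a transcription factor that waits in the cytoplasm in a complex with heat shock chaperones and moves to the nucleus once bound. There it activates genes near its response elements and restrains inflammatory genes that depend on the factors NF-kB and AP-1. In monocytes and macrophages these hormones are known for damping cytokine production and for raising scavenger receptors.

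Total counts were 9190063 to 10674815 in the prednisolone libraries, against 9531218 to 10925997 in vehicle series 1 and 8641726 to 9409679 in vehicle series 2. Levels are given as CPM, the counts of a gene divided by the TMM-scaled total of its library. Levels are not divided by gene length, and they are compared here between libraries and not between genes. Whether libraries of 1 group stem from separate cultures is not stated, and the p-values then reflect only how far libraries scatter, which may be a technical scatter. Of 14 monocyte markers all had counts in every library, and their summed level was 2585 to 2714 CPM with prednisolone, against 2699 to 2956 CPM in series 1 and 2850 to 2889 CPM in series 2. A list of 8 neutrophil markers, which holds the granule protease genes ELANE, CTSG and AZU1 of myeloid precursors and of which FCGR3B and LTF had 0 counts throughout, summed to 4103 to 4353 CPM with prednisolone, against 4318 to 4760 CPM in series 1 and 3040 to 3269 CPM in series 2. In such bulk libraries fewer cells of a type and less RNA per cell cannot be told apart.

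The first question is how many genes prednisolone moved. By edgeR's quasi-likelihood test with Benjamini-Hochberg adjustment, 307 of 15642 genes tested were called against both vehicle series at an adjusted p under 0.05 (1.96%). Of these 208 rose (1.33% of genes tested) and 99 fell (0.633%). Rises were the larger changes, with 99 genes at least 2-fold higher and 28 at least 2-fold lower. Most changes were small, since 180 of the 307 stayed under 2-fold and 63 under 1.5-fold. In 306 of the 307 every prednisolone library lay beyond all 6 vehicle libraries, which holds for 12.8% of all genes tested, and the exception was MORN2, named after its values were seen. Against series 1 alone 574 genes were called (3.67%), and against series 2 alone 3939 (25.2%). The vehicle series themselves differed for 2983 genes (19.1%), and 67 of the 307 are among these. Untreated libraries, which also come in a series 1 and a series 2, gave a direction from their series 1 mean to their series 2 mean. Along it, with the vehicle series 1 mean set to 0 and that of series 2 to 1, the prednisolone libraries lay at -0.019, 0.0028 and 0.0083. Against the untreated libraries in place of vehicle 382 genes were called (2.44%), 227 higher (1.45%) and 155 lower (0.991%), with 260 of the 307 among them.

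**Figure D1:**
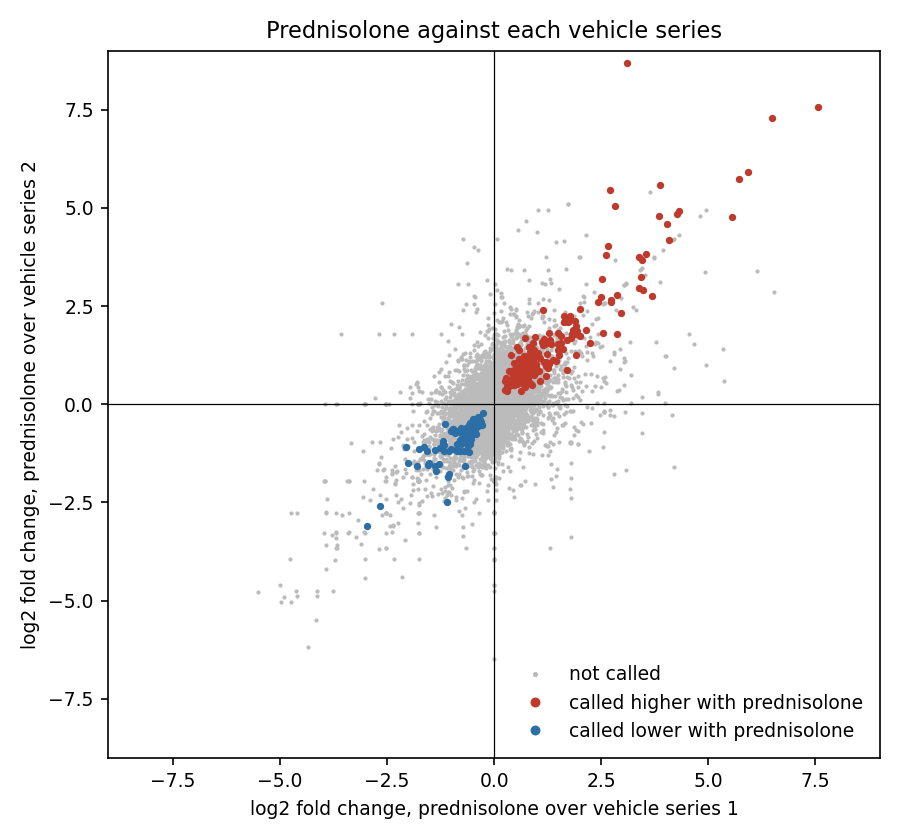
Each point is 1 of 15642 genes, with the log2 fold change of prednisolone over vehicle series 1 on the x axis and over vehicle series 2 on the y axis. Red points are the 208 genes called higher and blue points the 99 called lower, and called rises reach farther from 0 than called falls.

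Most listed targets of the glucocorticoid receptor rose. From a list of 25 known targets 24 were tested, 15 rose (62.5%, against 1.33% of all genes tested) and 9 were not called, with a median log2 fold change of 1.15 beside 0.0031 over all genes tested. The list was drawn up with earlier results of these libraries known. FKBP5 encodes a chaperone that lowers the hormone affinity of the receptor and so acts as its feedback inhibitor, and TSC22D3 encodes GILZ, which binds NF-kB and AP-1. FKBP5 had 754, 752 and 771 CPM with prednisolone, against 71.2, 74 and 66.8 CPM in vehicle series 1 and 82.4, 81.7 and 75.6 CPM in series 2. TSC22D3 had 303, 308 and 359.9 CPM with prednisolone, against 35.5, 32.7 and 24.8 CPM in vehicle series 1 and 20.6, 26.8 and 25.2 CPM in series 2. No prednisolone library came near a vehicle library for either gene, with log2 fold changes of 3.34 ± 0.09 (SE, adjusted p = 4.26e-25) and 3.56 ± 0.10 (SE, adjusted p = 1.66e-24). KLF9, a Kruppel-like repressor, had 115, 106 and 107 CPM with prednisolone, against 30.2, 22 and 29.4 CPM in vehicle series 1 and 21.4, 20.2 and 18.9 CPM in series 2 (log2 fold change 2.22, SE 0.11, adjusted p = 8.77e-16). GLUL encodes glutamine synthetase and averaged 194 ± 19.6 CPM with prednisolone (SD, n = 3). Its vehicle levels were 133 ± 12.1 CPM in series 1 and 99.3 ± 3.83 CPM in series 2 (SD, n = 3 each).

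The receptor gene itself was not called. NR3C1, the gene of the glucocorticoid receptor, had 68.6, 60.0 and 62.6 CPM with prednisolone, against 67.4, 77.9 and 63.3 CPM in vehicle series 1 and 64.3, 58.1 and 62 CPM in series 2, and these groups overlapped (log2 fold change -0.04, SE 0.09). Among 24 genes of the receptor, its chaperones and its cofactors 3 rose (12.5%, against 1.33% of all genes tested) and 21 were not called. They were FKBP5, the coactivator gene NCOA3 (log2 fold change 0.68, SE 0.11) and the chaperone gene HSPA1A (0.87, SE 0.10), whose reads may be shared with its near-identical copy HSPA1B, so that it is uncertain. NCOA3 was no longer called on leaving out prednisolone replicate 1 or 2 or any 1 of the vehicle series 1 libraries (adjusted p 0.00119 to 0.228 over its alternatives). Of the targets that were not called, SGK1, a kinase gene of sodium transport, had 3.29, 4.78 and 5.06 CPM with prednisolone, against 1.73, 2.49 and 1.75 CPM in vehicle series 1 and 1.51, 1.66 and 1.64 CPM in series 2 and missed the threshold (adjusted p = 0.074) although no libraries overlapped. Annexin 1, a mediator of glucocorticoid action encoded by ANXA1, had 65, 66.9 and 69.9 CPM with prednisolone, against 79, 73.2 and 65.1 CPM in vehicle series 1 and 62.8, 66.4 and 59.9 CPM in series 2, and the insulin receptor substrate gene IRS2 had log2 fold changes of 0.54 against series 1 and 0.14 against series 2.

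Promoters of a few responding genes are shown because the receptor binds DNA at short palindromes. The windows are from RefSeq on build GRCh38.p14, run from 250 bases before to 50 bases after an annotated start and could be matched by symbol for 155 of the 208 genes that rose and 72 of the 99 that fell. Where a symbol had several windows, only the first listed was kept. The full element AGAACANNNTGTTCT, the motif AGAACA repeated inverted after 3 bases and read on both strands like the others, was in 0 of the windows of 11134 tested genes. Its looser core GNACANNNTGTNC was in 0.189% of them and in 1 of the 155 windows of genes that rose, that of MAP3K6. MAP3K6, named after its values were seen, encodes a stress kinase of the ASK family, and its window lies at chr1:27366912-27367211 on the minus strand with the core in capitals. In FKBP5, at chr6:35728534-35728833 on the minus strand, capitals mark the receptor motif AGAACA. In PER1, a gene of the circadian clock, at chr17:8152355-8152654 on the minus strand, capitals mark an E-box, CACGTG, the element bound by CLOCK.
MAP3K6: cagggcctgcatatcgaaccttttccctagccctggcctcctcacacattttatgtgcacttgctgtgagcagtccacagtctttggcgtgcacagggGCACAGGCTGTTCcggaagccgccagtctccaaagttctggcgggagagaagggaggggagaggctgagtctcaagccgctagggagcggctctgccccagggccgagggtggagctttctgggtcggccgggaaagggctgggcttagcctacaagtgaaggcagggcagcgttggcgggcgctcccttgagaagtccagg
FKBP5: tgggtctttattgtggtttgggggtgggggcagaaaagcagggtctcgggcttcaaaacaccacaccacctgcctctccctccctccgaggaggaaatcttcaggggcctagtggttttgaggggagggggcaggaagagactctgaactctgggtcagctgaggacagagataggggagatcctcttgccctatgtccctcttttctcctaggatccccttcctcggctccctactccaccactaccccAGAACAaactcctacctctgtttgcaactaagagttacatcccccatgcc
PER1: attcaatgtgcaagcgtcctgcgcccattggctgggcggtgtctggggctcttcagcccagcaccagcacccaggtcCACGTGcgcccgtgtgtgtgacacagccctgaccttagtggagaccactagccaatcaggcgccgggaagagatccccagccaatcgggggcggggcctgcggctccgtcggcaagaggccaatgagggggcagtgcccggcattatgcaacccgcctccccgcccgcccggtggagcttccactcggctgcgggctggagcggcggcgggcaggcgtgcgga
The receptor motif AGAACA was in 13 of the 155 windows of genes that rose and 7 of the 72 of genes that fell, against 9.502% of all windows. The E-box was in 13 windows of genes that rose and 11 of genes that fell, against 9.862%. A match is only these letters in this window, and the full element contains both the core and AGAACA. MAP3K6 itself had 29.9, 28.6 and 28.1 CPM with prednisolone, against 13.1, 13.3 and 14.6 CPM in vehicle series 1 and 18.6, 19.1 and 19.8 CPM in series 2 (log2 fold change 0.83, SE 0.14), and its call was lost on leaving out any 1 of the prednisolone libraries or any 1 of the vehicle series 2 libraries and against the untreated libraries (adjusted p 0.00233 to 0.438 over its alternatives).

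Most of the largest rises, among them the listed targets CYP19A1, ADORA3 and ZBTB16, were in genes with little expression in vehicle. FKBP5, TSC22D3 and PER1 had higher vehicle means, of 75.3, 27.6 and 4.90 CPM. CYP19A1 encodes aromatase, which makes estrogens, and had 30.5, 31.3 and 34 CPM with prednisolone, against 0.306, 0.622 and 0.0923 CPM in vehicle series 1 and 0.216, 0.118 and 0.235 CPM in series 2 (log2 fold change 6.89, SE 0.42, adjusted p = 7.63e-13). Every prednisolone library stood far above every vehicle library. The other 22 genes tested of steroid synthesis and metabolism were not called (4.35% called, against 1.96% of all genes tested). GLDN, which encodes the adhesion protein gliomedin, had 17.5, 15.3 and 17.7 CPM with prednisolone, against 0.714, 0 and 0.369 CPM in vehicle series 1 and 0.755, 0.592 and 0.47 CPM in series 2 (log2 fold change 5.15, SE 0.41). UNC13C, a vesicle priming gene known from neurons, had 7.07, 9.56 and 8.71 CPM with prednisolone, against 0.714, 0 and 0.554 CPM in vehicle series 1 and 0.324, 0.118 and 0.352 CPM in series 2. Both genes were nearly silent in vehicle, and 1 of the vehicle libraries had 0 counts for each.

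ADORA3 encodes an adenosine receptor that restrains inflammatory cells, and had 35.5, 33.1 and 27.8 CPM with prednisolone, against 2.65, 2.66 and 1.29 CPM in vehicle series 1 and 0.755, 1.66 and 1.06 CPM in series 2. TMIGD3 shares its locus with ADORA3, so its rise (3.57, SE 0.30) is uncertain. ZBTB16, which encodes the zinc finger repressor PLZF, had 7.07, 6.65 and 7.2 CPM with prednisolone, against 0.51, 0.178 and 0.369 CPM in vehicle series 1 and 0.216, 0.355 and 0.117 CPM in series 2. All 3 prednisolone libraries lay within a narrow band for ZBTB16, above all 6 vehicle libraries. RBMS3, an RNA-binding protein gene, had 15.6, 18.5 and 15.5 CPM with prednisolone, against 1.53, 1.6 and 1.57 CPM in vehicle series 1 and 2.7, 1.78 and 1.88 CPM in series 2 (log2 fold change 3.17, SE 0.24). AREG, which encodes the growth factor amphiregulin, rose by 3.23 ± 0.49 (log2, SE) and PTCRA, the gene of the pre-T-cell receptor alpha chain, by 3.20 ± 0.34.

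Some of these rises rest on few counts. ARMC12 had 4.98, 4.57 and 6.84 CPM with prednisolone, against 0.204, 0.355 and 1.29 CPM in vehicle series 1 and 0, 0 and 0 CPM in series 2, which is a log2 fold change of 3.11 against series 1 and, with a floor of 3 counts over the group, at least 51.8-fold higher than in series 2, where it had 0 counts. Its call was lost with DESeq2 and on leaving out any 1 of the prednisolone libraries or vehicle series 1 replicate 1 or 2 or dexamethasone replicate 2 (adjusted p 1.57e-05 to 0.487 over its alternatives). GNLY, which encodes the cytolytic granule protein granulysin, had 5.48, 5.3 and 6.57 CPM with prednisolone, against 0.612, 0.533 and 1.57 CPM in vehicle series 1 and 0.647, 0.355 and 0 CPM in series 2, and its call was lost on leaving out vehicle series 1 replicate 1 or 2 (adjusted p 5.79e-05 to 0.0943). The list of 7 natural killer markers, to which GNLY belongs and of which 4 to 6 had counts in a library, summed to 14.6 to 19.3 CPM with prednisolone, against 10.9 to 13.3 CPM in series 1 and 9.37 to 12.9 CPM in series 2. Without GNLY the other 6 markers summed to 8.80 to 12.4 CPM with prednisolone, against 9.81 to 12.7 CPM in series 1 and 9.03 to 12.2 CPM in series 2, so these groups overlapped. MMP7, the matrix protease matrilysin, had 77 counts over the prednisolone libraries and 0 over the 6 vehicle libraries. With a floor of 3 counts over the vehicle group that is at least 50.3-fold higher. DESeq2 did not call MMP7, and the other 16 matrix protease and inhibitor genes tested were not called (5.88% called, against 1.96% of all genes tested).

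**Figure D2:**
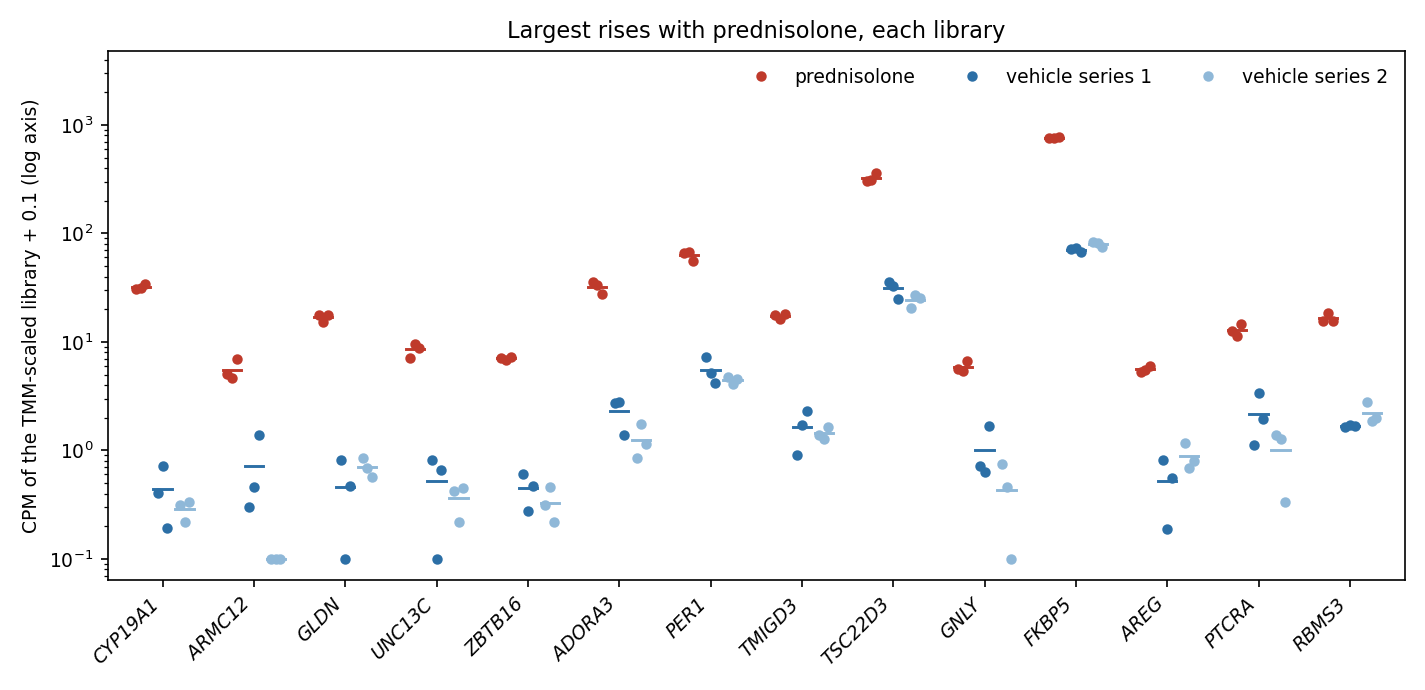
Levels of 14 of the largest rises in each library as CPM + 0.1 on a log axis, with prednisolone in red left of vehicle series 1 and vehicle series 2 in blue, and a bar at the mean of each 3 libraries. Every red point lies above all blue points of its gene, as the naming rule required. Red points run from 4.57 CPM at the lowest for ARMC12 to 771 CPM at the highest for FKBP5, and points at 0.1 are libraries with 0 counts.

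Within the circadian clock PER1 stood apart. It had 65.4, 67.3 and 55.4 CPM with prednisolone, against 7.14, 5.06 and 4.06 CPM in vehicle series 1 and 4.64, 4.03 and 4.46 CPM in series 2 (log2 fold change 3.68, SE 0.19, adjusted p = 1.37e-15). Of 20 clock genes tested 2 rose (10%, against 1.33% of all genes tested) and 18 were not called. The other was NFIL3, a repressor of clock output genes, with 24.7, 23.8 and 20.8 CPM with prednisolone, against 15.1, 16.8 and 13 CPM in vehicle series 1 and 12.3, 12.2 and 14.7 CPM in series 2. Its call was lost on leaving out prednisolone replicate 1 or 2 or vehicle series 1 replicate 1 or 3 (adjusted p 0.00275 to 0.169 over its alternatives). PER2, the paralog of PER1, had log2 fold changes of 0.23 and 0.47 against series 1 and series 2 and its libraries overlapped those of vehicle. The core activator gene ARNTL had a mean log2 fold change of 0.05.

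Among inhibitors of inflammatory signalling 6 of 24 genes tested rose (25%, against 1.33% of all genes tested) and 18 were not called. The median log2 fold change of the list was 0.515, beside 0.0031 over all genes tested. TSC22D3, NFKBIA, DUSP1 and ADORA3 are also in the list of receptor targets, and TNFAIP3 and IRAK3 are not. NFKBIA, which encodes an inhibitor that holds NF-kB in the cytoplasm, had 365, 391 and 366 CPM with prednisolone, against 139, 115 and 126 CPM in vehicle series 1 and 125, 123 and 130.1 CPM in series 2 (log2 fold change 1.57, SE 0.07, adjusted p = 6.21e-18). TNFAIP3, which encodes the ubiquitin editing enzyme A20 that shuts off NF-kB signalling, had 32.7, 31.2 and 30.7 CPM with prednisolone, against 16.1, 19.2 and 17.9 CPM in vehicle series 1 and 13.6, 11.1 and 9.74 CPM in series 2. IRAK3, a kinase-like inhibitor of Toll-like receptor signalling, rose by a smaller 0.53 ± 0.07 (log2, SE). Prednisolone and vehicle libraries did not overlap for NFKBIA, TNFAIP3 or IRAK3. DUSP1, the phosphatase that switches off the MAP kinases p38 and JNK, had 3.49, 3.33 and 2.75 CPM with prednisolone, against 0.204, 0.533 and 0.646 CPM in vehicle series 1 and 0.216, 0.592 and 0.704 CPM in series 2. Its call was lost without the mercuric chloride libraries in the fit and on leaving out prednisolone replicate 1 or 2 or vehicle series 1 replicate 1 or vehicle series 2 replicate 1 or 2 (adjusted p 0.0011 to 0.172 over its alternatives). Among 19 genes of MAP kinase feedback DUSP1, RGS16 (1.34, SE 0.10) and RGS2 (0.90, SE 0.19) rose and 16 were not called. Rises thus made up 15.8% of the list, against 1.33% of all genes tested. The RGS proteins speed the inactivation of G proteins, and RGS2 was lost with limma-voom, without the mercuric chloride libraries and on leaving out prednisolone replicate 2 or vehicle series 1 replicate 1 or 3 or any 1 of the vehicle series 2 libraries (adjusted p 0.00391 to 0.394).

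Of 25 inflammatory cytokine and chemokine genes tested 1 rose, 2 fell and 22 were not called, so that 12% were called, against 1.96% of all genes tested. EBI3, a subunit of interleukin 27 and interleukin 35, had 2.59, 2.08 and 0.977 CPM with prednisolone, against 0.102, 0.622 and 0.185 CPM in vehicle series 1 and 0, 0.355 and 0.235 CPM in series 2, and the levels are low. TNFSF10, the death ligand TRAIL, had 7.37, 7.28 and 5.42 CPM with prednisolone, against 17.2, 11.4 and 10.7 CPM in vehicle series 1 and 10.1, 9.59 and 11.3 CPM in series 2. TNFSF13B, the B cell survival factor BAFF, had 13.4, 18.3 and 15.9 CPM with prednisolone, against 32.4, 20.9 and 27.7 CPM in vehicle series 1 and 26, 21.6 and 25.4 CPM in series 2. The groups did not overlap in these 3 genes, but each call depended on single libraries. That of EBI3 was lost with DESeq2, with limma-voom and on leaving out prednisolone replicate 1 or 2 or vehicle series 1 replicate 1 or 3 or vehicle series 2 replicate 1 or 3 (adjusted p 0.00517 to 0.234). TNFSF10 was lost without a filter, in both fits of the 9 libraries alone and on leaving out any 1 of the prednisolone libraries or any 1 of the vehicle series 2 libraries (adjusted p 0.00483 to 0.374), and TNFSF13B on leaving out prednisolone replicate 1 or 3 or vehicle series 1 replicate 1 or vehicle series 2 replicate 1 or 3 (adjusted p 0.00568 to 0.261). IL1B, which encodes interleukin 1 beta, had 0.598, 0.832 and 0.444 CPM with prednisolone, against 0.51, 1.42 and 2.12 CPM in vehicle series 1 and 1.29, 2.01 and 1.17 CPM in series 2 and was not called.

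Of 26 scavenger, phagocytic and bridging receptor genes 3 rose, 1 fell and 22 were not called. Calls thus made up 15.4% of the list, against 1.96% of all genes tested. CD163, the receptor for hemoglobin bound to haptoglobin, had 2.29, 2.29 and 4.18 CPM with prednisolone, against 0, 0.622 and 0.554 CPM in vehicle series 1 and 0.108, 0 and 0.117 CPM in series 2. It rose on few counts, and the call was lost without a filter and on leaving out any 1 of the prednisolone libraries or any 1 of the vehicle series 1 libraries or vehicle series 2 replicate 1 or 3 (adjusted p 0.00155 to 0.282 over its alternatives). MFGE8, a bridge between dying cells and phagocytes, had 17.1, 17.8 and 12.9 CPM with prednisolone, against 4.08, 2.66 and 2.12 CPM in vehicle series 1 and 2.05, 1.78 and 3.99 CPM in series 2 (log2 fold change 2.52, SE 0.25, adjusted p = 1.23e-07). FPR2, a formyl peptide receptor through which annexin 1 signals, had 2.39, 1.98 and 2.75 CPM with prednisolone, against 0.408, 0.266 and 0.554 CPM in vehicle series 1 and 0, 0.829 and 0.235 CPM in series 2. Its call was lost in 13 of 22 alternatives, among them no filter, a replicate block and the omission of any 1 of the prednisolone libraries or any 1 of the vehicle series 1 libraries or vehicle series 2 replicate 1 or 3 or dexamethasone replicate 1 or 2 (adjusted p 0.00704 to 0.296). The list of 10 macrophage markers, which holds CD163 and of which 6 to 8 had counts in a library, summed to 16.8 to 16.9 CPM with prednisolone, against 12.6 to 15.6 CPM in series 1 and 10.5 to 12.5 CPM in series 2, and MRC1 had 0 counts in all of them. Without CD163 the other 9 markers summed to 12.5 to 14.4 CPM with prednisolone, against 12.6 to 14.9 CPM in series 1 and 10.5 to 12.4 CPM in series 2.

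The high-affinity immunoglobulin G receptor gene FCGR1A fell, with 73, 83.7 and 73.3 CPM with prednisolone, against 132, 129 and 130.3 CPM in vehicle series 1 and 156, 158 and 153 CPM in series 2 (log2 fold change -0.90, SE 0.07, adjusted p = 2.41e-09). FCGR1B (-1.08) and FCGR1C (-0.94), named after their values were seen, are near-identical copies of it, so the separate values are uncertain. ITGAL, the alpha chain of the leukocyte integrin LFA-1, had 49.1, 46.4 and 49.8 CPM with prednisolone, against 104, 111 and 117 CPM in vehicle series 1 and 90.9, 105 and 97 CPM in series 2 (log2 fold change -1.10, SE 0.11). Of 25 adhesion and chemoattractant receptor genes FPR2 rose, ITGAL fell and 23 were not called (8% called, against 1.96% of all genes tested).

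Among the calcium-binding S100 proteins the alarmin pair was lower. S100A8 had 26.9, 34.2 and 26.6 CPM with prednisolone, against 66.6, 65.5 and 52.9 CPM in vehicle series 1 and 103, 112 and 104 CPM in series 2, and its partner S100A9 had 47.3, 54.2 and 44.7 CPM with prednisolone, against 75.7, 70.6 and 70.2 CPM in vehicle series 1 and 92.8, 101 and 90.9 CPM in series 2. In both, all prednisolone libraries lay below all vehicle libraries, and series 2 lay above series 1. The falls were 1.47 ± 0.13 and 0.76 ± 0.12 (log2, SE), and 9 of the 11 tested S100 genes were not called. Calls made up 18.2% of this list, against 1.96% of all genes tested. S100A9 was lost on leaving out prednisolone replicate 1 or 3 or vehicle series 1 replicate 1 (adjusted p 6.08e-06 to 0.116 over its alternatives).

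Of 14 genes of the SERPINB clade of protease inhibitors and of plasminogen activation 1 rose, 3 fell and 10 were not called. Calls made up 28.6% of this list, against 1.96% of all genes tested. SERPINB2, also called plasminogen activator inhibitor 2, had 15.4, 11.6 and 11.7 CPM with prednisolone, against 49.4, 61.6 and 49.7 CPM in vehicle series 1 and 26.6, 30.5 and 25 CPM in series 2. SERPINB8, an inhibitor of furin, had 16, 15.1 and 16.1 CPM with prednisolone, against 38.4, 41.6 and 43.4 CPM in vehicle series 1 and 34.7, 39 and 32.4 CPM in series 2 (log2 fold change -1.28, SE 0.10, adjusted p = 2.33e-10). SERPINB10 had 2.89, 2.81 and 3.38 CPM with prednisolone, against 9.59, 11.3 and 7.29 CPM in vehicle series 1 and 7.23, 8.05 and 4.23 CPM in series 2. No prednisolone library reached a vehicle library in these genes, although SERPINB10 came close in series 2, and its call was lost with limma-voom and on leaving out any 1 of the prednisolone libraries or vehicle series 2 replicate 1 or 2 (adjusted p 0.000591 to 0.2 over its alternatives). PLAU, the urokinase gene, had 15.9, 9.56 and 12.9 CPM with prednisolone, against 24.5, 22.2 and 21 CPM in vehicle series 1 and 21.5, 23.1 and 18.5 CPM in series 2 and was not called.

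SLC7A11 had the largest fall by the naming rule. It encodes the transporter that imports cystine for glutathione synthesis, and had 25, 17.3 and 23.5 CPM with prednisolone, against 52, 42.8 and 46.6 CPM in vehicle series 1 and 132, 121 and 117 CPM in series 2. Prednisolone lay below both series, but the fall was -1.10 against series 1 and -2.49 against series 2 on the log2 scale. GCLC, the catalytic subunit of the enzyme that starts glutathione synthesis, rose (0.96, SE 0.12), with 29.7, 25.3 and 27.8 CPM with prednisolone, against 12.3, 10.7 and 12.8 CPM in vehicle series 1 and 16.5, 16.9 and 16.8 CPM in series 2. The other 27 of 29 tested genes of NRF2, cystine uptake and glutathione were not called (6.9% called, against 1.96% of all genes tested). In the list of ATF4 and the amino acid response SLC7A11 fell, SESN2, a sensor of leucine, rose (0.64, SE 0.13) and 22 of 24 were not called. Calls made up 8.33% of that list, against 1.96% of all genes tested. SESN2 was lost with limma-voom, against the untreated libraries and on leaving out any 1 of the prednisolone libraries or any 1 of the vehicle series 2 libraries (adjusted p 0.00506 to 0.359).

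The other largest falls were spread over signalling, membrane and nuclear genes. WNT7B, a WNT ligand, had 6.97, 9.25 and 6.04 CPM with prednisolone, against 31.2, 27.9 and 30.6 CPM in vehicle series 1 and 19.2, 19.9 and 23.5 CPM in series 2, and 24 of 27 WNT ligands, receptors and feedback genes were not called. The secreted WNT inhibitor genes DKK2 (1.15, SE 0.22) and SFRP1 (0.64, SE 0.10) rose, and DKK2 was lost on leaving out prednisolone replicate 1 or 3 or vehicle series 2 replicate 1 or 2 (adjusted p 0.00161 to 0.214). Of the WNT list 11.1% were called, against 1.96% of all genes tested. CAV1, which encodes the caveolar coat protein caveolin 1, had 13.9, 12.3 and 11.7 CPM with prednisolone, against 34.8, 48 and 44.8 CPM in vehicle series 1 and 26.6, 28.4 and 28.6 CPM in series 2. EPHB1, an ephrin receptor kinase gene, had 5.38, 3.64 and 1.87 CPM with prednisolone, against 11.6, 7.37 and 9.32 CPM in vehicle series 1 and 10.9, 11.5 and 9.51 CPM in series 2, so its prednisolone libraries lay below vehicle but spread over more than 2-fold. IGSF6, an immunoglobulin superfamily receptor gene of myeloid cells, fell by 1.37 ± 0.16 (log2, SE).

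CXorf21, the TASL adaptor of Toll-like receptor signalling to IRF5, had 73.7, 89.6 and 78.5 CPM with prednisolone, against 188, 166 and 150.3 CPM in vehicle series 1 and 264, 279 and 285 CPM in series 2. It fell against both series, more against series 2 (-1.78) than against series 1 (-1.06). SPIB, a transcription factor gene related to PU.1, had 1.89, 1.87 and 2.84 CPM with prednisolone, against 5, 5.24 and 6.09 CPM in vehicle series 1 and 6.47, 6.51 and 6.1 CPM in series 2, and its call was lost against the untreated libraries and on leaving out prednisolone replicate 1 or 2 (adjusted p 0.00151 to 0.396 over its alternatives). KIAA1407, also called CCDC191, had 1.99, 1.98 and 1.78 CPM with prednisolone, against 3.88, 4.26 and 6.46 CPM in vehicle series 1 and 6.37, 6.51 and 5.75 CPM in series 2, and was lost on leaving out any 1 of the prednisolone libraries or vehicle series 1 replicate 3 (adjusted p 0.00281 to 0.171). Prednisolone and vehicle libraries did not overlap in either gene, as the naming rule required.

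**Figure D3:**
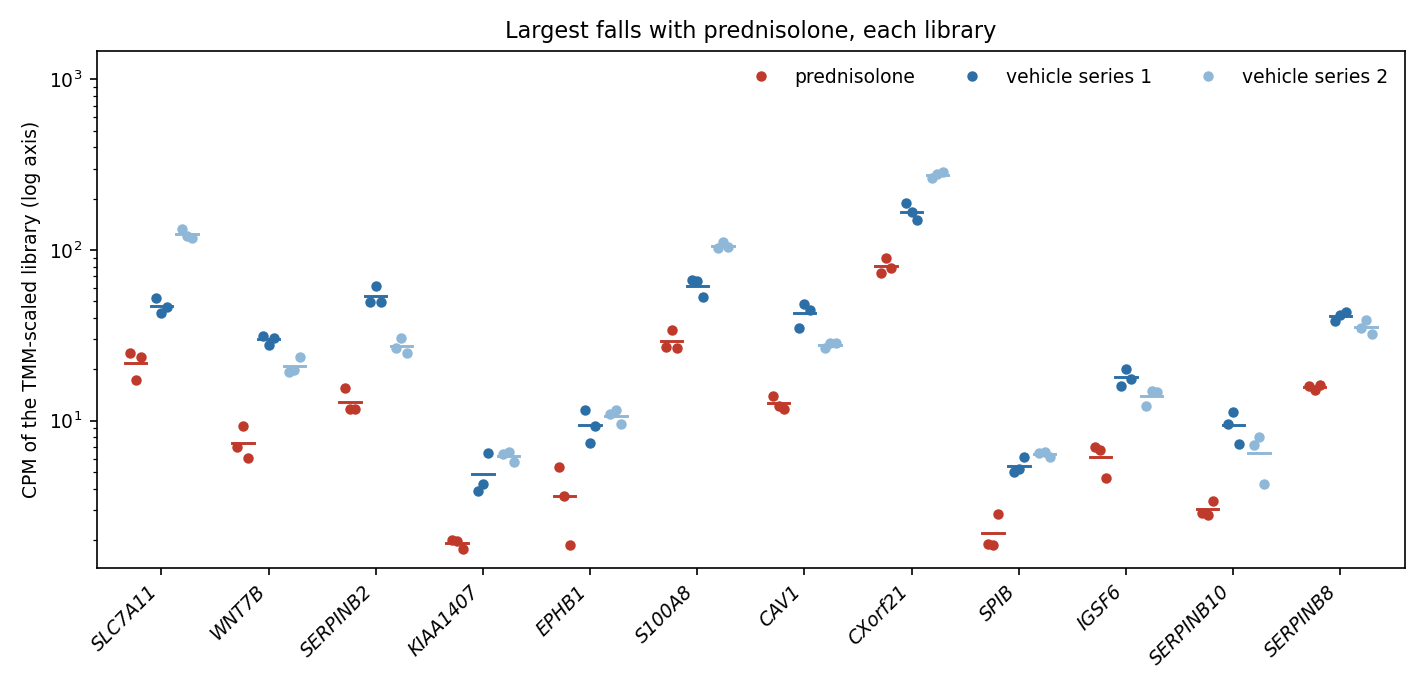
Levels of the 12 largest falls in each library as CPM on a log axis, with prednisolone in red left of vehicle series 1 and vehicle series 2 in blue, and a bar at the mean of each 3 libraries. Every red point lies below all blue points of its gene, as the naming rule required. In SLC7A11, S100A8 and CXorf21 series 2 lies above series 1, while in SERPINB2, WNT7B and CAV1 it lies below.

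Myeloid transcription factor genes held 4 rises and 1 fall among 22 tested (22.7% called, against 1.96% of all genes tested). CEBPD, a C/EBP factor induced in maturing myeloid cells, had 349, 379 and 378 CPM with prednisolone, against 219, 237 and 225 CPM in vehicle series 1 and 157, 158 and 156 CPM in series 2 (log2 fold change 0.97, SE 0.09). MYB, which maintains immature blood cells, had 309, 356 and 331 CPM with prednisolone, against 468, 463 and 451 CPM in vehicle series 1 and 493, 499.8 and 519 CPM in series 2 (log2 fold change -0.54, SE 0.08). The groups did not overlap in CEBPD or MYB. ZBTB16 and GFI1, a transcriptional repressor known for its role in granulocyte development (0.46, SE 0.07), also rose.

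Of 24 growth arrest and p53-linked genes 4 rose, 1 fell and 19 were not called (20.8% called, against 1.96% of all genes tested). DDIT4, which encodes the mTOR inhibitor REDD1, had 25.8, 31.5 and 34 CPM with prednisolone, against 3.98, 4.17 and 3.6 CPM in vehicle series 1 and 5.61, 6.16 and 6.57 CPM in series 2 (log2 fold change 2.64, SE 0.16, adjusted p = 6.45e-12). SESN1, a sestrin gene, had 39.6, 36.2 and 40.0 CPM with prednisolone, against 22.3, 24.6 and 24.6 CPM in vehicle series 1 and 24.6, 18.4 and 24.1 CPM in series 2, and SESN3, its relative, had 106, 97.9 and 106 CPM with prednisolone, against 233, 228 and 236 CPM in vehicle series 1 and 246, 226 and 235 CPM in series 2. SESN2, described with the amino acid response, was the other rise among sestrins. SESN1 and SESN3 thus moved in opposite directions, with SESN1 at 0.74 ± 0.11 and SESN3 at -1.18 ± 0.07 (log2, SE). CDKN1A, which encodes the cell cycle inhibitor p21, rose by 0.68 ± 0.11 (log2, SE) and was lost on leaving out prednisolone replicate 1 or vehicle series 2 replicate 1 or 2 (adjusted p 0.00326 to 0.107). Of 24 DNA replication genes and of 24 genes of G2 and mitosis edgeR called 0, with 2 and 0 at an unadjusted p under 0.05, and DESeq2 and limma-voom also called 0. The BCL2 family (17 tested), metallothioneins and zinc export (14), ribosomal proteins (24) and antigen presentation and costimulation (14) had 0 calls by all of these tools, with 1 gene at an unadjusted p under 0.05 in each. In the fit of the 9 libraries alone 4 ribosomal protein genes and 1 replication gene were called lower, and in 9 of the 24 ribosomal protein genes (37.5%) prednisolone and vehicle libraries did not overlap, against 12.8% of all genes tested.

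Lipid genes showed 3 rises and 2 falls among 28 tested (17.9% called, against 1.96% of all genes tested). LPL, which encodes the lipoprotein lipase that releases fatty acids from lipoproteins, had 279, 279.5 and 279 CPM with prednisolone, against 123, 112 and 106 CPM in vehicle series 1 and 79.3, 84.9 and 71.7 CPM in series 2. ACSL1, which activates fatty acids by joining them to coenzyme A, had 51, 45.4 and 56.7 CPM with prednisolone, against 15.5, 14.9 and 15.8 CPM in vehicle series 1 and 12.8, 12.7 and 9.98 CPM in series 2. Both genes were higher in every prednisolone library, by 1.56 ± 0.08 and 1.92 ± 0.16 (log2, SE). The triglyceride synthesis gene DGAT2 rose by 0.59 ± 0.10, while the cholesterol exporter gene ABCA1 (-0.74, SE 0.14) and the fatty acid carrier gene FABP5 (-0.57, SE 0.06) fell. ABCA1 was lost against the untreated libraries and on leaving out prednisolone replicate 1 or 3 or vehicle series 1 replicate 2 or 3 (adjusted p 0.0019 to 0.182). In the cholesterol synthesis and uptake list DHCR7, the last enzyme of the pathway, rose (1.02, SE 0.18) and 22 of 23 were not called. Calls made up 4.35% of that list, against 1.96% of all genes tested. DHCR7 was lost on leaving out prednisolone replicate 2 or 3 (adjusted p 0.000406 to 0.0556).

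Interferon-stimulated genes had a median log2 fold change of -0.231, beside 0.0031 over all genes tested. Of these 30 genes 2 were called lower (6.67%, against 0.633% of all genes tested). XAF1, a proapoptotic interferon target, had 33.8, 26.9 and 23.5 CPM with prednisolone, against 49.5, 55 and 50.4 CPM in vehicle series 1 and 63, 64.3 and 60.6 CPM in series 2. HERC5, the ligase that attaches ISG15 to proteins, had 8.47, 7.38 and 5.78 CPM with prednisolone, against 9.89, 15.6 and 13.8 CPM in vehicle series 1 and 17.5, 18 and 13.9 CPM in series 2. Both fell by about the same size (-1.02, SE 0.13, and -1.03, SE 0.22), and HERC5 was lost in 11 of 23 alternatives, among them limma-voom and the omission of any 1 of the prednisolone libraries or vehicle series 1 replicate 2 or 3 or any 1 of the vehicle series 2 libraries (adjusted p 0.00293 to 0.341). Of 21 immediate early genes FOSL2, an AP-1 subunit, fell (-0.81, SE 0.16) and 20 were not called (4.76% lower, against 0.633% of all genes tested). The median log2 fold change of that list was 0.301, beside 0.0031 over all genes tested. FOSL2 was lost in 11 of 23 alternatives, among them the fit of the 9 libraries alone and the omission of prednisolone replicate 1 or 3 or any 1 of the vehicle series 1 libraries or vehicle series 2 replicate 2 or 3 or dexamethasone replicate 2 (adjusted p 0.00458 to 0.497).

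**Figure D4:**
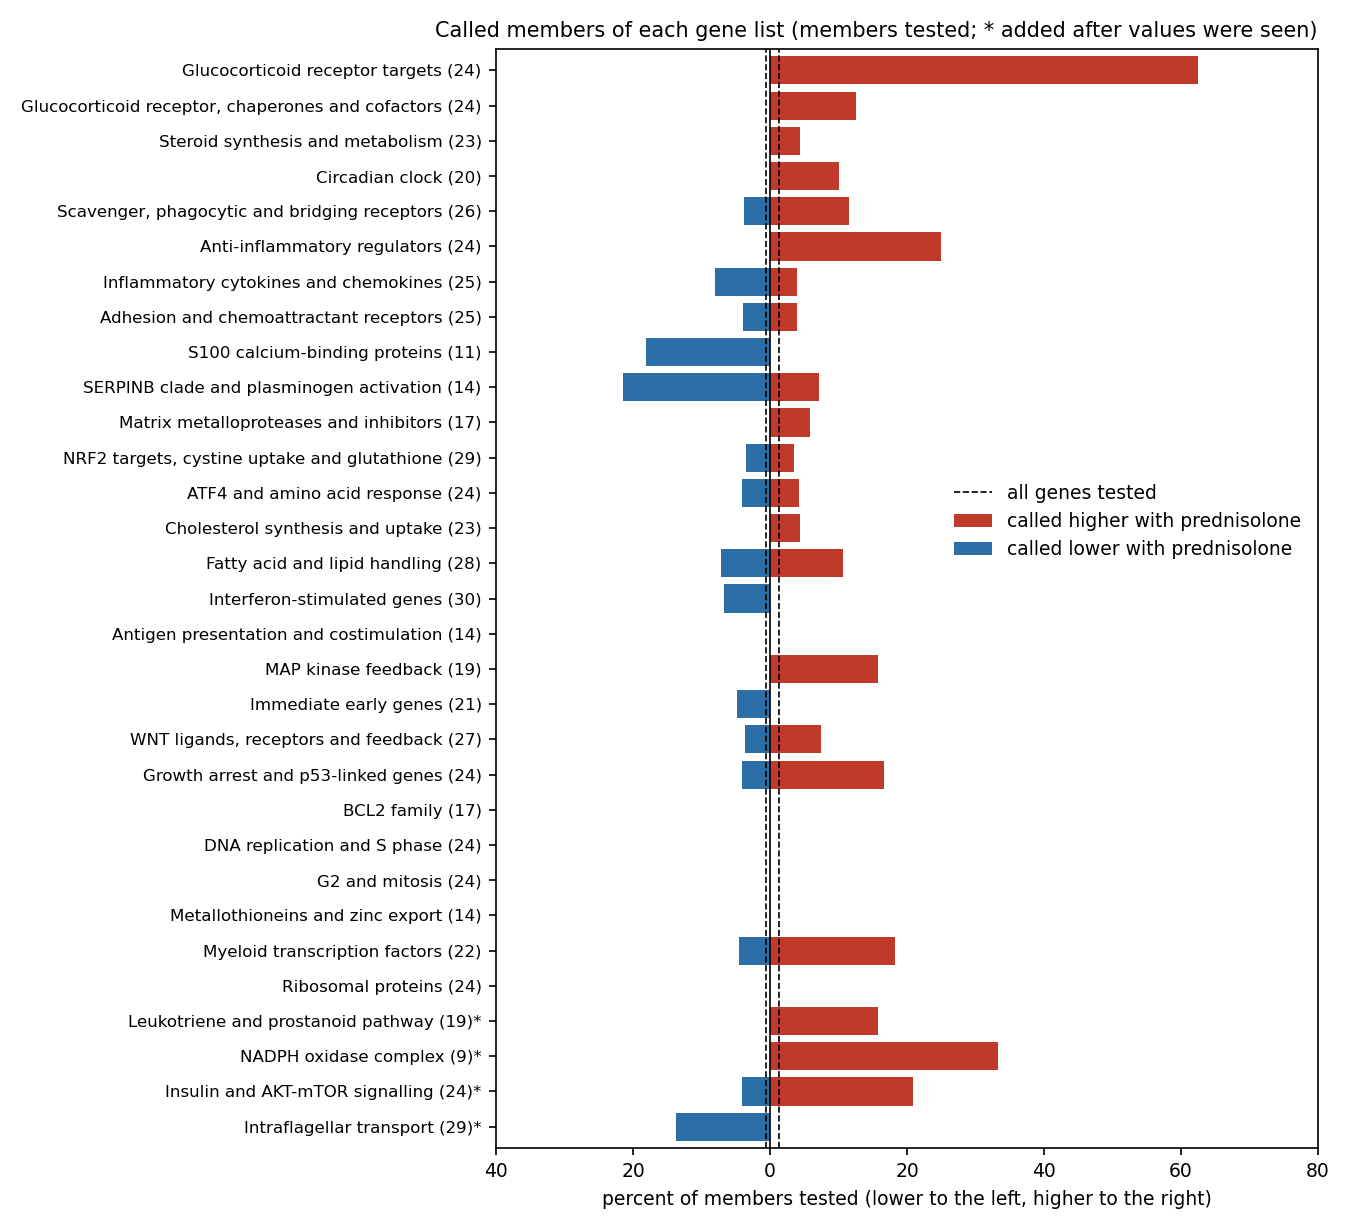
Bars give the share of the tested members of each of 31 gene lists that were called higher (red, to the right) or lower (blue, to the left) with prednisolone, with the number tested in brackets and an asterisk on the 4 lists added after values were seen. The other 27 lists, that of the receptor targets included, were chosen with earlier results of these data known. Dashed lines mark 1.33% higher and 0.633% lower over all genes tested, and the longest bar is that of the receptor targets at 62.5%.

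Dexamethasone carries a fluorine and a methyl group that prednisolone lacks. It was given for 12 h at its own CV90 in 3 other libraries of the study. Both glucocorticoids were thus matched in time and in the viability they leave, while their concentrations are unknown and may differ. The labels give no series for either compound, and the vehicle series differed for 2983 genes (19.1%). If the compounds belong to different series, a difference between them cannot be told apart from one between series. Dexamethasone replicate 3 stood apart from its group: pairs with it had a chi-square over degrees of freedom of 36.12 and 43.12, while the pair of replicates 1 and 2 had 3.508. The comparisons of both with vehicle share the vehicle libraries. Dexamethasone against vehicle called 1340 of 15642 genes (8.57%). The direct contrast called 1444 (9.23%), with 587 higher (3.75%) and 857 lower (5.48%) with prednisolone, and among the 26 largest rises and falls described here 7 differed. RBMS3 had 15.6, 18.5 and 15.5 CPM with prednisolone, against 48.8, 46.8 and 37.1 CPM with dexamethasone, and SERPINB2 had 15.4, 11.6 and 11.7 CPM with prednisolone, against 6.41, 3.02 and 0.603 CPM with dexamethasone. RBMS3 was lower with prednisolone than with dexamethasone by a log2 difference of -1.42 (95% interval -1.92 to -0.91, adjusted p = 0.000205), and DDIT4 by -1.16 (-1.51 to -0.80). Also lower with prednisolone were ZBTB16 (-1.95, -2.73 to -1.18), ADORA3 (-0.87, -1.45 to -0.29), TSC22D3 (-0.94, -1.18 to -0.71) and FKBP5 (-0.55, -0.78 to -0.33), each given as the log2 difference with its interval. FKBP5 had 754, 752 and 771 CPM with prednisolone, against 1269, 1316 and 759.6 CPM with dexamethasone, so the third dexamethasone library lay within the prednisolone range. The insulin receptor gene INSR differed by -0.49 (-0.74 to -0.24) and LPL by -0.38 (-0.56 to -0.20). INSR had 244, 238 and 245 CPM with prednisolone, against 394, 394 and 236 CPM with dexamethasone, so it was higher in dexamethasone replicates 1 and 2 and lower in replicate 3 than in every prednisolone library. Its call was lost without dexamethasone replicate 1 (adjusted p = 0.0523) or 2 (0.0507), while it had 2.05e-05 without replicate 3. ADORA3 was lost on leaving out any 1 of the prednisolone libraries or dexamethasone replicate 2 or 3, with adjusted p of 0.0666 to 0.177. The falls of WNT7B (1.04, 0.60 to 1.49), SERPINB2 (2.02, 1.43 to 2.62) and S100A9 (0.75, 0.45 to 1.04) were smaller with prednisolone. For SLC7A11 the difference was 0.08 (-0.19 to 0.34), for CAV1 0.11 (-0.25 to 0.47) and for ACSL1 -0.14 (-0.51 to 0.23), and none of them was called. Over the 307 genes 75 differed between the glucocorticoids, and among the 208 rises 53 were higher with dexamethasone and 3 with prednisolone. The median SD of log2 CPM over genes was 0.167 among prednisolone libraries and 0.314 among dexamethasone libraries. The contrast rests on single libraries, as it called 733 genes without prednisolone replicate 1, 685 without prednisolone replicate 3, 2346 without dexamethasone replicate 2 and 638 without dexamethasone replicate 3, and 6 in a fit of the 6 libraries alone. In that fit RBMS3 kept its call (adjusted p = 0.0478), and the other 10 genes given here as different did not (0.0592 to 0.37).

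**Figure D5:**
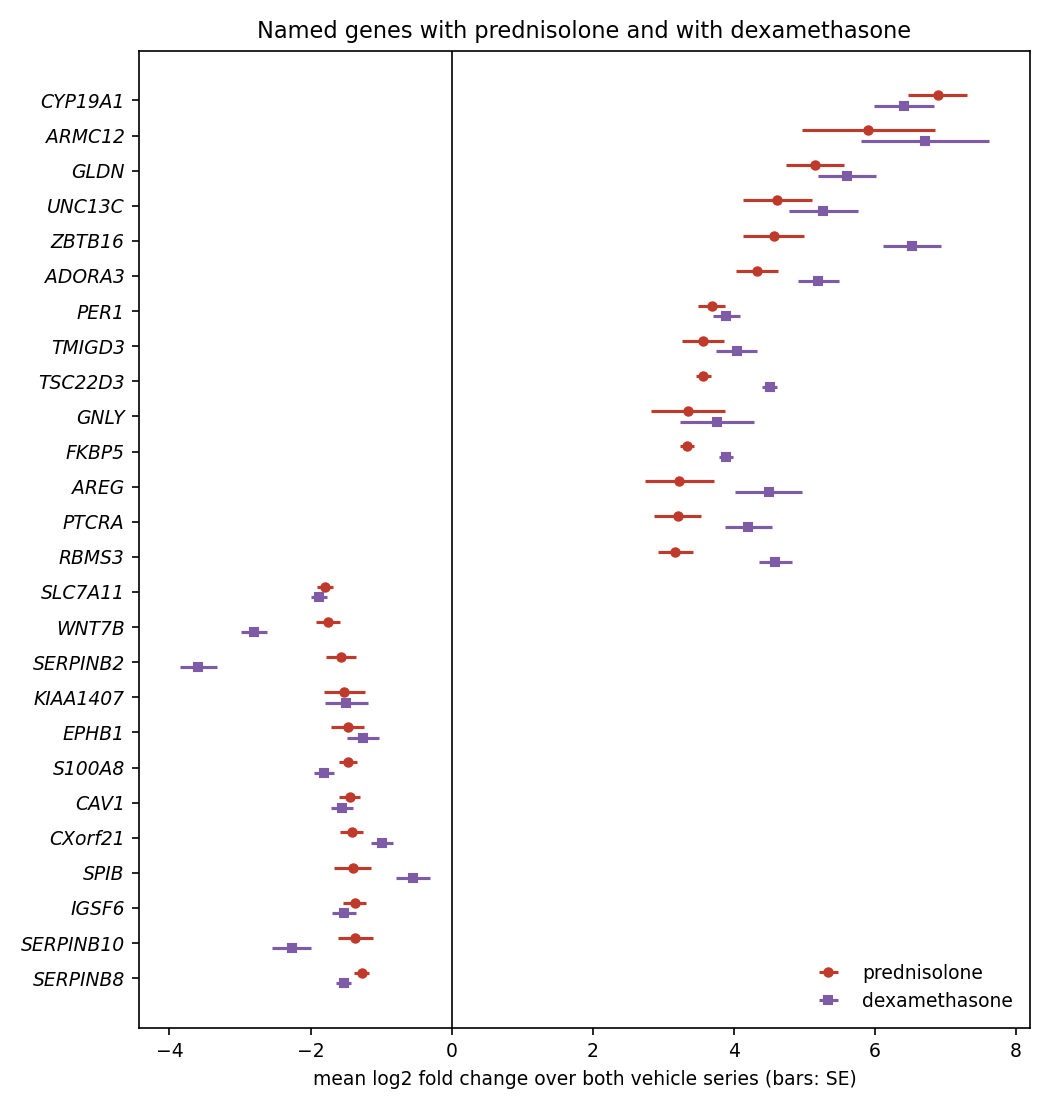
Mean log2 fold changes over both vehicle series for 26 named genes, with prednisolone as red circles above dexamethasone as purple squares and bars for the SE. SERPINB2 and ZBTB16 have the widest gaps between the compounds, and KIAA1407 and SLC7A11 lie closest together.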

How the data were processed

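RNA from THP-1 cells was sequenced as 3′ end libraries, 48 in all. The deposited table of each library holds read counts per gene symbol, which the authors made with Bowtie2 on hg19 (GRCh37) and bedtools, per the submitters' processing notes. Versions, the strand setting and the annotation were not found in these sources, so antisense and overlapping genes are uncertain.

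Here 25737 rows were summed by symbol to 24462, and 15642 passed edgeR's expression filter. All 48 libraries in 16 groups entered 1 quasi-likelihood fit with TMM scaling (edgeR 4.0.16, R 4.3.3), without covariates. The p-value of a gene is the larger of those against the vehicle series if both directions agree, otherwise 1, adjusted over all genes. A log2 fold change is the mean over both series, with SE from the F statistic of that mean. Intervals are 95%. Prednisolone and vehicle libraries of 1 group differed by more than sampling noise (chi-square over its degrees of freedom 2.13 to 5.44 in pairs), as did dexamethasone libraries (3.508 to 43.12).

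Named were the largest changes of at least 1 on the log2 scale with a mean of at least 5 CPM in either group, up to 15 rises and 12 falls, and up to 4 called genes in each of 27 lists. Members and lists were chosen with earlier results of these data known, and 4 more lists and the genes said to be so were added after values were seen. Some genes named by the rule are not reported here. Sequences are from RefSeq. Alternatives were DESeq2 1.42.0, limma-voom 3.58.1, RLE scaling, other filters, other sets of libraries, a replicate block, untreated libraries as reference and leaving out each library.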

Additional observations from a re-analysis of the deposited data

Results flagged for a closer look

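The vehicle series differed from each other for 67 of the 307 called genes, against 2983 of all 15642 genes tested (19.1%). The size of those 67 changes therefore depends on the series. The difference was tested as the contrast of series 2 with series 1 by edgeR's quasi-likelihood test. The log2 fold change against series 1 minus that against series 2 was 1.39 for SLC7A11, 0.78 for S100A8 and 0.72 for CXorf21, whose falls were larger against series 2. It was -0.97 for SERPINB2, -0.61 for CAV1 and -0.52 for WNT7B, whose falls were larger against series 1. For ARMC12 it was -5.59, a value that depends on the prior count because series 2 had 0 counts.

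Another 8 genes were called in opposite directions against the vehicle series, and the rule leaves them out. Among them are MYO6, which encodes an unconventional myosin, the kinase gene ROCK1 and PGD, which encodes an enzyme of the pentose phosphate pathway.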

How the results depend on the processing

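The count against both series kept within 1.5 times of 307 under DESeq2 (337), limma-voom (322), RLE scaling (304), no filter (296), a filter at 1 CPM (303), without the mercuric chloride libraries (306), without duplicated symbols (305) and untreated libraries in place of vehicle (382). In the fit of the 9 libraries alone 693 genes were called, 301 of the 307 among them, and 55.0% of calls were higher, against 67.8%; the count against series 1 was 1302. With a replicate block in that fit the counts were 622 and 1207. A replicate block over all libraries gave 296. Deviations of log2 CPM from the group means correlated by -0.0076 to 0.0239 between same-numbered prednisolone and vehicle libraries. That gives no sign of pairing by number, though 3 libraries per group cannot exclude it. Leaving out 1 library gave 228 to 392 genes against both series (228 to 260 for prednisolone and vehicle libraries), 415 to 544 against series 1, 3041 to 3868 against series 2, and 638 to 2346 between the glucocorticoids, where 6 libraries alone gave 6. For the comparison with vehicle, leaving out dexamethasone libraries was added after seeing the data. Of 100 named genes 70 were called in every alternative, 30 lost the call in at least 1 and 0 reversed, and the cause was not tested. Mean vehicle levels under 1 CPM limit the precision for CD163, DUSP1, FPR2 and EBI3. The same holds for the rises of ARMC12, AREG, CYP19A1, GLDN, GNLY, MMP7, UNC13C and ZBTB16.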

Other observations

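The lists and most single genes that follow were chosen after their values were seen. Of 19 genes of the leukotriene and prostanoid pathway 3 rose (15.8%, against 1.33% of all genes tested) and 16 were not called. ALOX5AP, which encodes the protein that presents arachidonic acid to 5-lipoxygenase, had 197, 184 and 179 CPM with prednisolone, against 85.7, 79.6 and 78.7 CPM in vehicle series 1 and 63.8, 67.7 and 60.1 CPM in series 2. ALOX5, the lipoxygenase itself, had 18.6, 19.4 and 13.9 CPM with prednisolone, against 7.34, 10.9 and 7.57 CPM in vehicle series 1 and 7.34, 6.28 and 7.63 CPM in series 2, and TBXA2R, the thromboxane receptor gene, rose by 1.39 ± 0.16 (log2, SE). ALOX5 was lost on leaving out prednisolone replicate 2 or vehicle series 1 replicate 1 or 3 (adjusted p 0.000222 to 0.075 over its alternatives). Of 9 genes of the NADPH oxidase complex NCF1 (1.86), NCF1B (1.89) and NCF1C (1.93) rose (33.3%, against 1.33% of all genes tested). These are near-identical copies and so uncertain, and they may not be separate rises. The other 6 were not called, among them CYBB, the catalytic subunit, with a log2 fold change of 0.37. In the insulin and AKT-mTOR list 5 of 24 rose and 1 fell, 4 of them shared with the growth arrest list. Calls made up 25% of it, against 1.96% of all genes tested. INSR had 244, 238 and 245 CPM with prednisolone, against 124, 111 and 108 CPM in vehicle series 1 and 101, 106 and 112 CPM in series 2, and RPS6KA2, a ribosomal S6 kinase gene, rose by 1.65 ± 0.18 (log2, SE).

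Of 29 genes of intraflagellar transport, the traffic along the axoneme of cilia, 4 fell, 0 rose and 25 were not called. Falls made up 13.8% of the list, against 0.633% of all genes tested. The median log2 fold change was -0.287, beside 0.0031 over all genes tested. KIF3B, a subunit of the kinesin motor, had 22.7, 23.4 and 25.4 CPM with prednisolone, against 32.3, 39.3 and 37.2 CPM in vehicle series 1 and 49.3, 48.5 and 52.7 CPM in series 2 (log2 fold change -0.84, SE 0.11). IFT88 (-0.83, SE 0.14), the dynein motor gene DYNC2H1 (-0.79, SE 0.14) and CLUAP1 (-0.51, SE 0.11) also fell. IFT88 was lost on leaving out prednisolone replicate 3 or vehicle series 1 replicate 2 or 3, CLUAP1 on leaving out prednisolone replicate 2 or 3 or vehicle series 1 replicate 1 or 3 or vehicle series 2 replicate 3 and DYNC2H1 in 10 of 23 alternatives, with adjusted p up to 0.0697, 0.221 and 0.383 in that order of genes.

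Single genes outside the lists included abundant ones. The receptor tyrosine kinase gene FLT3, active in blood progenitors and leukemia, had 82, 81.2 and 83.7 CPM with prednisolone, against 25.4, 26.2 and 20.8 CPM in vehicle series 1 and 15.1, 17.9 and 19.4 CPM in series 2. ONECUT2, a homeobox factor gene of liver and nerve cells, had 419, 434 and 405 CPM with prednisolone, against 114, 112 and 114 CPM in vehicle series 1 and 89.7, 98 and 101 CPM in series 2. JDP2, a repressor of AP-1, had 79.5, 86.3 and 75.6 CPM with prednisolone, against 20.3, 20.3 and 22.3 CPM in vehicle series 1 and 22.1, 21.3 and 22.9 CPM in series 2. Every prednisolone library was above every vehicle library for these genes. The collagen processing protease gene ADAMTS2 rose by 1.67 ± 0.10, the actin severing protein gene GSN by 1.26 ± 0.07 and EOMES, a T-box factor gene, by 1.87 ± 0.20 (log2, SE), and GSN overlaps its antisense gene GSN-AS1 and so is uncertain.

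Among falls MPEG1, which encodes the pore-forming protein perforin-2 of macrophages, had 0.299, 0.416 and 0.0888 CPM with prednisolone, against 1.33, 1.42 and 3.6 CPM in vehicle series 1 and 2.59, 2.01 and 2.35 CPM in series 2. CD84, a receptor of the SLAM family, had 21.3, 20.4 and 20.4 CPM with prednisolone, against 45.4, 44.8 and 38.1 CPM in vehicle series 1 and 44.1, 49.5 and 48.4 CPM in series 2, and SRGN, the proteoglycan of secretory granules, had 1352, 1223 and 1309.9 CPM with prednisolone, against 1826, 1879 and 1901 CPM in vehicle series 1 and 2024, 2046 and 2019 CPM in series 2. IL7R, the interleukin 7 receptor gene, had 1.49, 0.624 and 1.42 CPM with prednisolone, against 3.16, 4.26 and 2.95 CPM in vehicle series 1 and 4.21, 3.67 and 2.23 CPM in series 2. All 4 genes were lower in every prednisolone library. IL7R was lost with limma-voom, against the untreated libraries and on leaving out any 1 of the prednisolone libraries or vehicle series 1 replicate 2 or vehicle series 2 replicate 1 or 2 (adjusted p 0.00576 to 0.272). The list of 8 T cell markers, which holds IL7R, summed to 0.762 to 1.68 CPM with prednisolone, against 3.14 to 4.58 CPM in series 1 and 2.19 to 4.25 CPM in series 2, with CD3E, TRAT1 and LCK at 0. IL7R makes up nearly all of this sum, and the other 7 markers came to 3 counts over the prednisolone libraries, against 3 in series 1 and 1 in series 2.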
